A study of Mus musculus with 12 samples.

Results

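A set of 7 mouse genes that sense or process extracellular ATP, NAD and adenosine were followed across CD8 T cells that carried a Batf3 vector or a control vector. The genes are P2rx7, P2rx4, Art2b, Cd38, Entpd1, Nt5e and Adora2a. They were chosen by name, with earlier results of these data known, as the 7 rows of the count table with these symbols. The table held 55335 genes, and all 7 were among the 15702 genes tested. The CD8 T cells came from OT-I spleens (C57BL/6 background), in which T cells share a transgenic receptor for an ovalbumin peptide. Cells were transduced with a retroviral vector expressing Batf3 or with an empty (control) vector, sorted for transduction and cultured for 6 h. Stimulated cells were exposed to antibodies against CD3e and CD28, each at 1 µg/ml, and non-stimulated cells were kept in IL-15 at 100 ng/ml. The labels name IL-15 for the non-stimulated cultures alone, so IL-15 may differ between the cultures too, and its part cannot be told apart from that of the antibodies. The 4 groups (Batf3 stimulated, control stimulated, Batf3 non-stimulated and control non-stimulated) had 3 libraries each. The study design calls these technical replicates, so every SD, SE and p-value covers technical spread, and none covers the spread between mice or transductions.

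Cells release ATP and NAD when they are damaged or strongly activated. P2X7, the product of P2rx7, is an ATP-gated cation channel which at high ATP opens a large pore and can kill the cell; P2X4 is a related channel that responds to lower ATP. In mouse T cells the ectoenzyme ART2.2 (Art2b) uses NAD to ADP-ribosylate P2X7 and so opens it without ATP, and CD38 consumes the same NAD. CD39 (Entpd1) strips ATP to AMP and CD73 (Nt5e) turns AMP into adenosine, which acts on the receptor encoded by Adora2a to raise cAMP and restrain T cell activation.

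P2rx7 (ENSMUSG00000029468) lies at 122643911 to 122691432 on chromosome 5 of GRCm38, plus strand, and P2rx4 (ENSMUSG00000029470) follows it at 122707544 to 122729738, with 16111 bp between the annotated genes. Cd38 (ENSMUSG00000029084) lies elsewhere on chromosome 5, at 43868553 to 43912375. Art2b (ENSMUSG00000030651) lies at 101576970 to 101585600 on chromosome 7, minus strand. Entpd1 (ENSMUSG00000048120) lies at 40612366 to 40741602 on chromosome 19, Nt5e (ENSMUSG00000032420) at 88327197 to 88372092 on chromosome 9 and Adora2a (ENSMUSG00000020178) at 75316877 to 75334784 on chromosome 10. The annotated exons of 6 of these genes overlap no other gene, and those of P2rx7 share 119 bases with the microRNA gene Mir8115.

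Batf3 encodes a factor of the AP-1 family, whose members bind the 7-base AP-1 site TGANTCA. This site was searched for on both strands of RefSeq promoter windows (GRCm38.p6), each covering 250 bases before to 50 after a start site. Of the 7 genes, 6 had a window, 8 windows in all. The site was present in 1 of the 2 windows of P2rx7 and in the window of Art2b, as TGAGTCA in each case, and absent from the windows of P2rx4, Cd38, Entpd1 and Nt5e. Of all 32851 windows of the table, 7.81% held it. A match to the longer AP-1-IRF composite element (0.244% of all windows) or to the palindromic cAMP response element (1.79%) was found in none of the 8 windows. The 2 windows with the site are shown 5′ to 3′ on the strand of the gene, with the AP-1 site in capitals. In P2rx7 the site begins 249 bases before the start (chr5:122643677-122643976), and in Art2b 104 bases before it (chr7:101581112-101581411, minus strand, within the gene as GENCODE annotates it). The window of Nt5e (chr9:88327359-88327658) is given for comparison, since Nt5e had the largest called rise after P2rx7 with the Batf3 vector and no site. A match describes these letters and does not show binding.

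P2rx7: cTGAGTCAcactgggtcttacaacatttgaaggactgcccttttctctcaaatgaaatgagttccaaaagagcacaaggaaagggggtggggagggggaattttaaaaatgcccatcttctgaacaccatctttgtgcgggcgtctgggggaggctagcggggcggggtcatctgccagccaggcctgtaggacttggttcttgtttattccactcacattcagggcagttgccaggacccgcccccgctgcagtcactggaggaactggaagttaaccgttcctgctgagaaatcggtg
Art2b: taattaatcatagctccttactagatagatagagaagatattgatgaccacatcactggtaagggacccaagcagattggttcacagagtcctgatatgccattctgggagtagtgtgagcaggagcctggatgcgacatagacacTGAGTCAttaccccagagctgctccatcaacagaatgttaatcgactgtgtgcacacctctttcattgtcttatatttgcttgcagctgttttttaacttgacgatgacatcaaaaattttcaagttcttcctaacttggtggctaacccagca
Nt5e: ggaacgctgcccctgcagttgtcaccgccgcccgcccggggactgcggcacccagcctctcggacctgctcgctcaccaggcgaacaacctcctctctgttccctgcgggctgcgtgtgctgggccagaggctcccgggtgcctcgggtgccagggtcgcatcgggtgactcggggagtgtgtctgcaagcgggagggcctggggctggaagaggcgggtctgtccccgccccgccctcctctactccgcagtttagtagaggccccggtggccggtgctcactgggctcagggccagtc

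Total counts lay between 14211564 and 14468231 per library, and 3 counts, used as the floor below which a library's value is not read, stood for 0.191 to 0.229 CPM (reads per 1000000 of the effective library size, which includes the TMM factor). Batf3 itself, the check of the labels, stood at 427 ± 11.9 CPM in Batf3 stimulated and 18.4 ± 0.735 CPM in control stimulated cells, and at 470.4 ± 3.68 CPM in Batf3 non-stimulated and 6.77 ± 0.833 CPM in control non-stimulated cells (SD, n = 3). Reads from the vector and from the gene of the cell cannot be told apart. The 6 T cell markers Cd3e, Cd3d, Cd3g, Cd8a, Cd8b1 and Cd247 were present in every group, with a summed level of 1115 CPM or more in each library, and Cd4 stood at 0.321 CPM or less in every group mean. P2rx7, Cd38 and the ectonucleotidases are also made by myeloid cells, B cells and regulatory T cells. The monocyte marker Lyz2, the B cell marker Ms4a1, the NK marker Ncr1 and the dendritic cell markers Cd209a and Siglech had 0 counts in all 12 libraries. The summed level of the 8 macrophage and monocyte markers nevertheless differed by vector, at 17.5 to 19.9 CPM in Batf3 stimulated and 11.6 to 13.9 CPM in control stimulated libraries, and at 14.3 to 15.3 CPM in Batf3 non-stimulated and 8.62 to 10.6 CPM in control non-stimulated libraries. The 8 dendritic cell markers summed to 63.3 to 67.8 CPM in Batf3 stimulated and 37.2 to 43.4 CPM in control stimulated libraries, and to 37.2 to 39.7 CPM in Batf3 non-stimulated and 30.8 to 31.8 CPM in control non-stimulated libraries. Of these sums, the integrin gene Itgax, which activated T cells also express, made up 43.7 CPM in Batf3 stimulated and 17.6 CPM in control stimulated cells. Foxp3, the factor of regulatory T cells, averaged 11.8 CPM in Batf3 non-stimulated and 0.619 CPM in control non-stimulated cells, and 5.68 CPM in Batf3 stimulated and 1.12 CPM in control stimulated cells. The 5 CD4 and regulatory T cell markers together summed to 46.2 to 50.5 CPM in Batf3 stimulated and 61.1 to 63.8 CPM in control stimulated libraries, and to 105.7 to 112.3 CPM in Batf3 non-stimulated and 130 to 137.7 CPM in control non-stimulated libraries. Of these sums, Lrrc32 made up 24.7 CPM in Batf3 stimulated and 44.3 CPM in control stimulated cells. It made up 40.5 CPM in Batf3 non-stimulated and 96.7 CPM in control non-stimulated cells. Like Foxp3, the markers Zbtb7b and Ikzf4 were higher with the Batf3 vector in non-stimulated cells, without overlap of libraries. The lower sums with the Batf3 vector thus reflect Lrrc32. The 7 B cell markers summed to at most 6.63 CPM and the 4 NK markers to at most 5.78 CPM in any library. The NK sum was 1.92 to 3.59 CPM in Batf3 non-stimulated and 3.65 to 5.78 CPM in control non-stimulated libraries. It was 1.34 to 1.99 CPM in Batf3 stimulated and 1.07 to 1.29 CPM in control stimulated libraries. Klrb1c averaged 0.789 CPM in Batf3 non-stimulated and 3.03 CPM in control non-stimulated cells, and Klre1 averaged 2.07 and 1.61 CPM. The 6 stroma and endothelium markers summed to 6.75 to 8.26 CPM in Batf3 stimulated and 51.45 to 52.55 CPM in Batf3 non-stimulated libraries, and to 6.25 to 7.77 CPM in control stimulated and 53.9 to 58.0 CPM in control non-stimulated libraries, the same direction as Entpd1 and Nt5e below. Most of this was Pecam1, an adhesion molecule gene also expressed by T cells, at 6.20 CPM in Batf3 stimulated and 50.8 CPM in Batf3 non-stimulated cells, and at 6.09 CPM in control stimulated and 55.6 CPM in control non-stimulated cells. The 7 erythroid and platelet markers summed to 1.93 to 3.69 CPM in Batf3 stimulated and 1.37 to 1.83 CPM in control stimulated libraries, and to 5.64 to 7.56 CPM in Batf3 non-stimulated and 2.78 to 4.12 CPM in control non-stimulated libraries, with Hbb-bs, Pf4 and Ppbp at 0 counts throughout. The part of these levels in the results below was not tested.

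The first comparison asked which of the 7 genes the Batf3 vector changed. P2rx7 rose in both cultures, Nt5e rose in both and by more after stimulation, Cd38 rose in stimulated cells, and Art2b and Adora2a fell in non-stimulated cells. P2rx4 and Entpd1 did not pass the test in either culture. In non-stimulated cells 2 of 7 genes rose and 2 fell, against 16.3% and 23% of all tested genes, with a median log2 change of 0.13 over the 7 genes and -0.02 over all tested genes. In stimulated cells 3 of 7 rose and 0 fell, against 14.8% and 14.6% of all tested genes, with medians of 0.38 and 0.00. Since the 7 genes were chosen with earlier results known, these shares are a description and no test of the set. The threshold for a call was 0.05 on the Benjamini-Hochberg adjusted p of the edgeR quasi-likelihood fit over all tested genes ("edgeR adjusted p" below). The balance of calls over all genes moved with the scaling. With library sizes alone in place of TMM factors, 60.1% of called genes rose in non-stimulated cells, against 41.5%, and 65.6% in stimulated cells, against 50.3%.

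The difference between the cultures was tested as an interaction, the Batf3 effect in stimulated cells minus that in non-stimulated cells. Of the 7 genes, 3 had a higher Batf3 effect in stimulated cells (Cd38, Nt5e and Adora2a) and 0 a lower one, against 14.6% and 6.08% of all tested genes. This balance over all genes also moved with the setting. Of the called interactions 70.6% were higher in stimulated cells, against 62.5% with library sizes alone. The share was 60.2% to 61.9% without any 1 of the control stimulated libraries. The Batf3 effect on P2rx7 was not shown to differ between the cultures (-0.29 ± 0.32, edgeR adjusted p = 0.582).

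**Figure D1:**
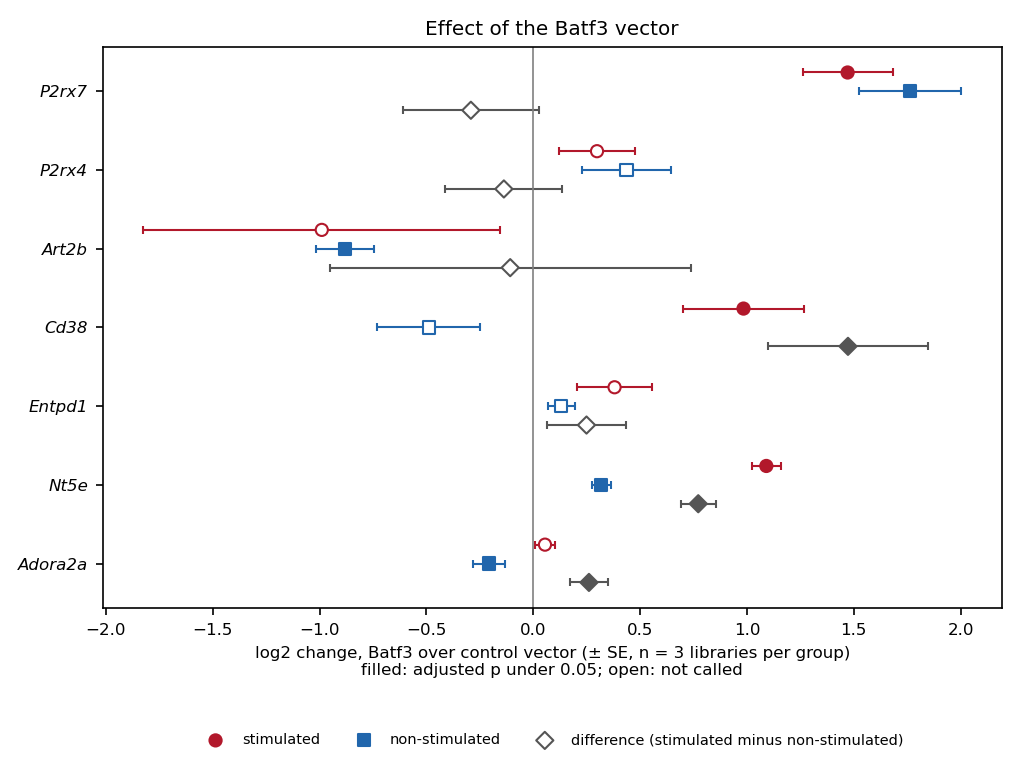
Log2 change (x axis) of each gene, Batf3 over control vector, in stimulated (circles) and non-stimulated cells (squares), and the difference between them (diamonds); bars are ± SE, n = 3 libraries per group, and filled symbols passed an adjusted p under 0.05. P2rx7 lies at 1.47 and 1.76, and Cd38 lies on opposite sides of 0 in the 2 cultures.

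The second comparison set stimulated against non-stimulated cells of each vector. A difference in IL-15 between the cultures may be part of what is called stimulation here. Art2b and Entpd1 fell at least 10-fold by their fitted changes, Nt5e fell, and Adora2a rose 6.01-fold with the Batf3 vector and 5.02-fold with the control vector. After stimulation Art2b was near the floor of 3 counts, and it passed the filter on low counts through its non-stimulated libraries. P2rx7 and P2rx4 rose by less than 2-fold. Cd38 fell with the control vector and did not pass the test with the Batf3 vector. With the Batf3 vector 3 of 7 genes rose and 3 fell, against 41.2% and 41.4% of all tested genes. With the control vector 3 rose and 4 fell, against 39.6% and 40.7% of all tested genes. With most tested genes called, these counts are close to the background and say nothing particular about the 7 genes. Their median log2 change was 0.42 with the Batf3 vector and -1.05 with the control vector. Median log2 changes of all tested genes were 0.01 with the Batf3 vector and -0.01 with the control vector, and -0.20 and -0.19 with library sizes alone. In bulk RNA, fewer cells of a type and less RNA per cell cannot be told apart.

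**Figure D2:**
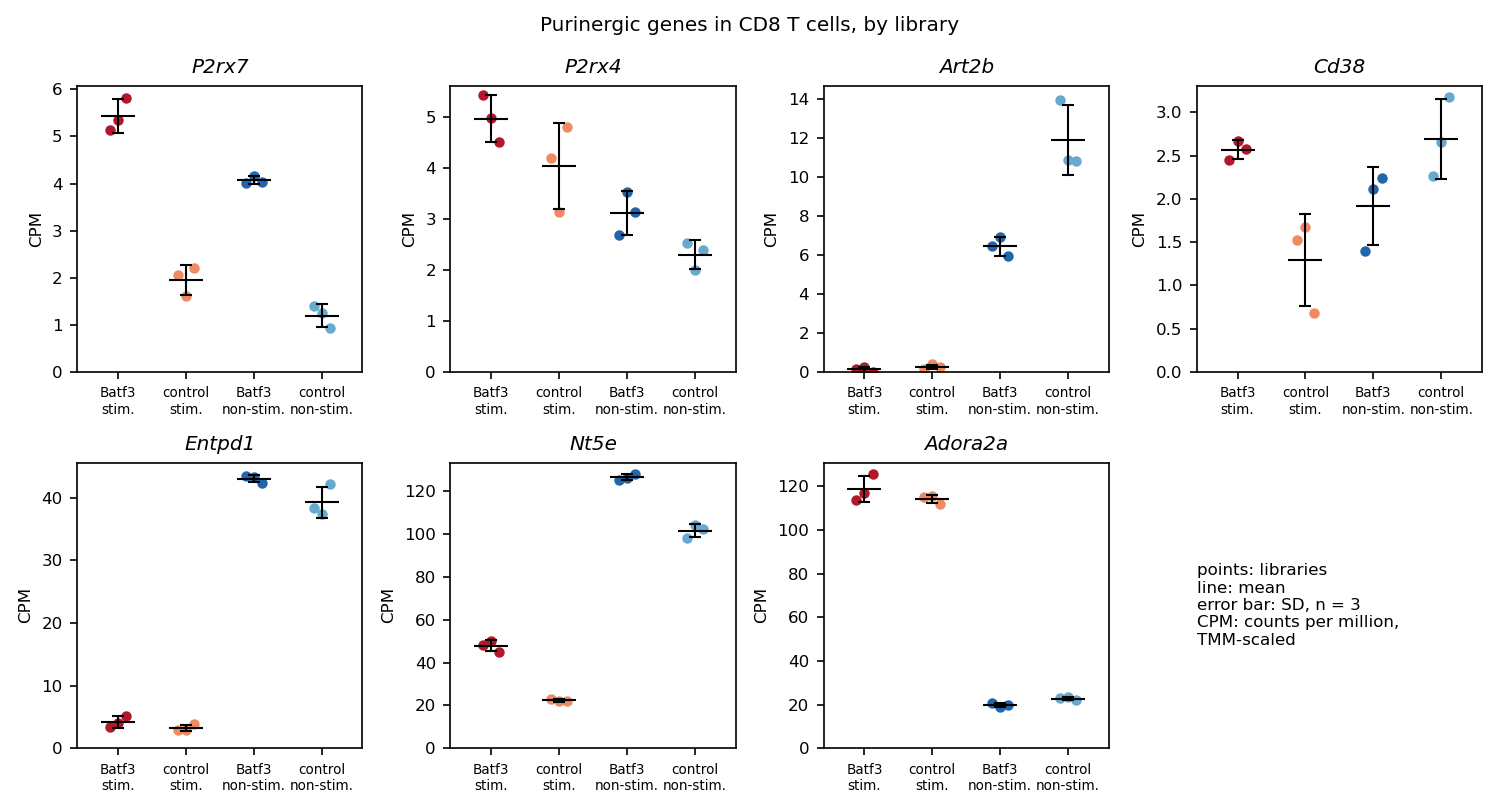
CPM of the 7 genes in each of the 12 libraries (points), with the mean and SD of each group (n = 3). Art2b and Entpd1 are high in the 6 non-stimulated libraries, Adora2a is high in the 6 stimulated ones, and P2rx7 is high in the 6 libraries with the Batf3 vector.

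Among the ATP receptors, P2rx7, the channel that NAD and high ATP open, had 5.13, 5.34 and 5.83 CPM in Batf3 stimulated libraries and 2.06, 1.60 and 2.21 CPM in control stimulated libraries. In non-stimulated libraries it had 4.02, 4.17 and 4.04 CPM with the Batf3 vector and 1.40, 1.26 and 0.928 CPM with the control vector. Every library with the Batf3 vector lay above every library with the control vector, whatever the culture, and no 2 groups overlapped. The rise was 2.77-fold in stimulated cells (log2 change 1.47 ± 0.21 (SE), edgeR adjusted p = 1.15e-08) and 3.39-fold in non-stimulated cells (1.76 ± 0.24, edgeR adjusted p = 7.94e-10). Over 17 other settings the log2 change stayed between 1.34 and 1.56 in stimulated and between 1.60 and 1.89 in non-stimulated cells. The counts behind it are small, 69 to 79 reads per Batf3 stimulated library and 14 to 21 per control non-stimulated library.

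Stimulation raised P2rx7 1.33-fold with the Batf3 vector (log2 change 0.42 ± 0.17, edgeR adjusted p = 0.0189) and 1.63-fold with the control vector (0.71 ± 0.27, edgeR adjusted p = 0.013). Both calls depended on the setting. With library sizes alone the changes were 0.20 (edgeR adjusted p = 0.26) and 0.52 (edgeR adjusted p = 0.0666). With the Batf3 vector the call was also lost with no filter on low counts (0.37, edgeR adjusted p = 0.0752), with DESeq2 (0.42, DESeq2 adjusted p = 0.116) and without replicate 1 or 3 of Batf3 non-stimulated or replicate 2 or 3 of Batf3 stimulated cells (0.36 to 0.40, edgeR adjusted p = 0.0501 to 0.0736). With the control vector it was lost without control non-stimulated replicate 3 (0.55, edgeR adjusted p = 0.079) or control stimulated replicate 3 (0.62, edgeR adjusted p = 0.0607).

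P2rx4, the neighbouring gene of the same channel family, had 5.43, 4.97 and 4.50 CPM in Batf3 stimulated and 4.19, 3.12 and 4.80 CPM in control stimulated libraries. It had 2.68, 3.52 and 3.14 CPM in Batf3 non-stimulated and 2.52, 1.99 and 2.39 CPM in control non-stimulated libraries. Stimulated and non-stimulated libraries of a vector did not overlap, while the vectors overlapped in stimulated cells and did not in non-stimulated cells. Stimulation raised P2rx4 by a log2 change of 0.67 ± 0.18 with the Batf3 vector (edgeR adjusted p = 0.00064) and 0.81 ± 0.21 with the control vector (edgeR adjusted p = 0.000275). The log2 change with the Batf3 vector was 0.30 ± 0.18 in stimulated (edgeR adjusted p = 0.221) and 0.44 ± 0.21 in non-stimulated cells (edgeR adjusted p = 0.0878), neither of which was called. With library sizes alone the change in non-stimulated cells was called (0.51, edgeR adjusted p = 0.0433).

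Art2b, the ADP-ribosyltransferase that couples NAD to P2X7, was near the floor of 3 counts after stimulation. Batf3 stimulated libraries had 2, 3 and 0 reads (0.149, 0.223 and 0 CPM) and control stimulated libraries had 2, 5 and 3 reads (0.152, 0.381 and 0.228 CPM). Batf3 non-stimulated libraries had 6.44, 6.92 and 5.96 CPM and control non-stimulated libraries 13.95, 10.9 and 10.8 CPM. The stimulated libraries lay far below all non-stimulated ones, and Batf3 non-stimulated libraries lay below the control non-stimulated ones without overlap. From summed reads, 5 in Batf3 stimulated and 302 in Batf3 non-stimulated cells, the level was 52.1-fold lower (95% counting interval 22.1 to 161.7, Clopper-Pearson). From 10 reads in control stimulated and 537 in control non-stimulated cells it was 46.8-fold lower (25.2 to 98.1). Both changes were called (log2 change -5.61 ± 0.69, edgeR adjusted p = 9.53e-23, and -5.50 ± 0.49, edgeR adjusted p = 8.46e-28). Art2b passed the filter on low counts through its non-stimulated libraries.

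In non-stimulated cells the Batf3 vector lowered Art2b 1.84-fold (log2 change -0.88 ± 0.13, edgeR adjusted p = 1.24e-07), the opposite direction to P2rx7 in the same libraries. The value lay between -0.95 and -0.75 over 17 other settings. In stimulated cells the 5 reads with the Batf3 vector and the 10 with the control vector gave a ratio of 0.486 with a counting interval of 0.131 to 1.56, so a difference was not detectable at this depth. Art2a, a close copy of Art2b on the same chromosome, averaged 0.831 ± 0.228 CPM in Batf3 non-stimulated and 0.951 ± 0.268 CPM in control non-stimulated cells, and reads that fit either copy may be missing or shared.

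Cd38, the NAD glycohydrolase, had the largest fitted difference in Batf3 effect between the cultures among the 7 genes. It had 2.46, 2.67 and 2.58 CPM in Batf3 stimulated and 1.52, 1.68 and 0.685 CPM in control stimulated libraries. It had 1.40, 2.11 and 2.24 CPM in Batf3 non-stimulated and 2.26, 2.65 and 3.18 CPM in control non-stimulated libraries. Batf3 libraries lay above control libraries in stimulated cells and below them in non-stimulated cells, by a narrow margin in the second case. The log2 change was 0.98 ± 0.28 in stimulated cells (1.98-fold, edgeR adjusted p = 0.00414) and -0.49 ± 0.24 in non-stimulated cells (edgeR adjusted p = 0.0986, not called). The difference of 1.47 ± 0.37 passed the test (edgeR adjusted p = 0.00161), and over 15 other settings it lay between 1.13 and 1.67 and was called in each. The rise in stimulated cells was lost without control stimulated replicate 3, the library at 0.685 CPM with 9 reads (0.67, edgeR adjusted p = 0.0842).

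Stimulation changed Cd38 by 0.42 ± 0.25 on the log2 scale with the Batf3 vector (edgeR adjusted p = 0.109, not called) and lowered it with the control vector, by a log2 change of -1.05 ± 0.28 (2.08-fold lower, edgeR adjusted p = 0.00036). These responses differ by the same interaction of 1.47. Bst1, which encodes a related NAD ectoenzyme, was at 0.575 CPM or less in every group mean and was not tested.

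Of the ectoenzymes that turn ATP into adenosine, Entpd1, which encodes CD39, had 3.35, 4.08 and 5.16 CPM in Batf3 stimulated and 2.97, 2.90 and 3.81 CPM in control stimulated libraries. It had 43.5, 43.3 and 42.4 CPM in Batf3 non-stimulated and 38.4, 37.4 and 42.1 CPM in control non-stimulated libraries. The cultures were far apart, and the vectors overlapped in stimulated cells and were barely apart in non-stimulated cells. Stimulation lowered Entpd1 10.2-fold with the Batf3 vector (log2 change -3.36 ± 0.12, edgeR adjusted p = 4.91e-39) and 12.2-fold with the control vector (-3.60 ± 0.14, edgeR adjusted p = 9.08e-39). The effect of the Batf3 vector was not called in stimulated (0.38 ± 0.18, edgeR adjusted p = 0.0951) or non-stimulated cells (0.13 ± 0.06, edgeR adjusted p = 0.101). The second of these was called under 8 of 17 other settings (0.16 to 0.21, edgeR adjusted p = 0.0078 to 0.0474), among them the fits without control non-stimulated replicate 3, without any 1 of the control stimulated libraries and without Batf3 stimulated replicate 1 or 2. The first was called without Batf3 stimulated replicate 1 (0.51, edgeR adjusted p = 0.0303).

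Nt5e, which encodes CD73, the enzyme that makes adenosine from AMP, was higher with the Batf3 vector in both cultures. It had 48.2, 50.1 and 45.1 CPM in Batf3 stimulated and 23.2, 22.1 and 22.0 CPM in control stimulated libraries. It had 125, 126 and 128 CPM in Batf3 non-stimulated and 98.1, 104 and 102 CPM in control non-stimulated libraries. No 2 groups overlapped. The rise with the Batf3 vector was 2.13-fold in stimulated cells (log2 change 1.09 ± 0.07, edgeR adjusted p = 1.68e-23) and 1.25-fold in non-stimulated cells (0.32 ± 0.04, edgeR adjusted p = 1.23e-09). The difference between the cultures, 0.77 ± 0.08, passed the test (edgeR adjusted p = 3.75e-13). Stimulation lowered Nt5e 2.65-fold with the Batf3 vector (-1.40 ± 0.05, edgeR adjusted p = 4.23e-37) and 4.52-fold with the control vector (-2.18 ± 0.06, edgeR adjusted p = 1.45e-43). These calls held under every other setting run.

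Adora2a, the receptor through which adenosine raises cAMP in T cells, rose on stimulation, while Entpd1 and Nt5e fell. It had 114, 117 and 125 CPM in Batf3 stimulated and 115, 116 and 112 CPM in control stimulated libraries. It had 20.5, 18.8 and 19.9 CPM in Batf3 non-stimulated and 23.0, 23.3 and 21.9 CPM in control non-stimulated libraries. The stimulated libraries of the 2 vectors overlapped, and the non-stimulated ones did not. The log2 change on stimulation was 2.59 ± 0.06 with the Batf3 vector (edgeR adjusted p = 1.465e-47) and 2.33 ± 0.06 with the control vector (edgeR adjusted p = 2.97e-45). The Batf3 vector changed it by 0.05 ± 0.05 in stimulated cells (edgeR adjusted p = 0.372, not called). In non-stimulated cells it fell by 0.21 on the log2 scale (SE 0.07, edgeR adjusted p = 0.0126). This small fall was lost with library sizes alone (-0.13, edgeR adjusted p = 0.132), with only the 2 groups compared in the fit (-0.17, edgeR adjusted p = 0.0615) and without Batf3 non-stimulated replicate 2 (-0.17, edgeR adjusted p = 0.0713). The difference between the cultures was 0.26 ± 0.09 (edgeR adjusted p = 0.0137). It was lost with no filter on low counts (0.22, edgeR adjusted p = 0.0875), without any 1 of the control stimulated libraries (0.21 to 0.23, edgeR adjusted p = 0.0517 to 0.0864) and without Batf3 non-stimulated replicate 2 (0.22, edgeR adjusted p = 0.0632).

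**Figure D3:**
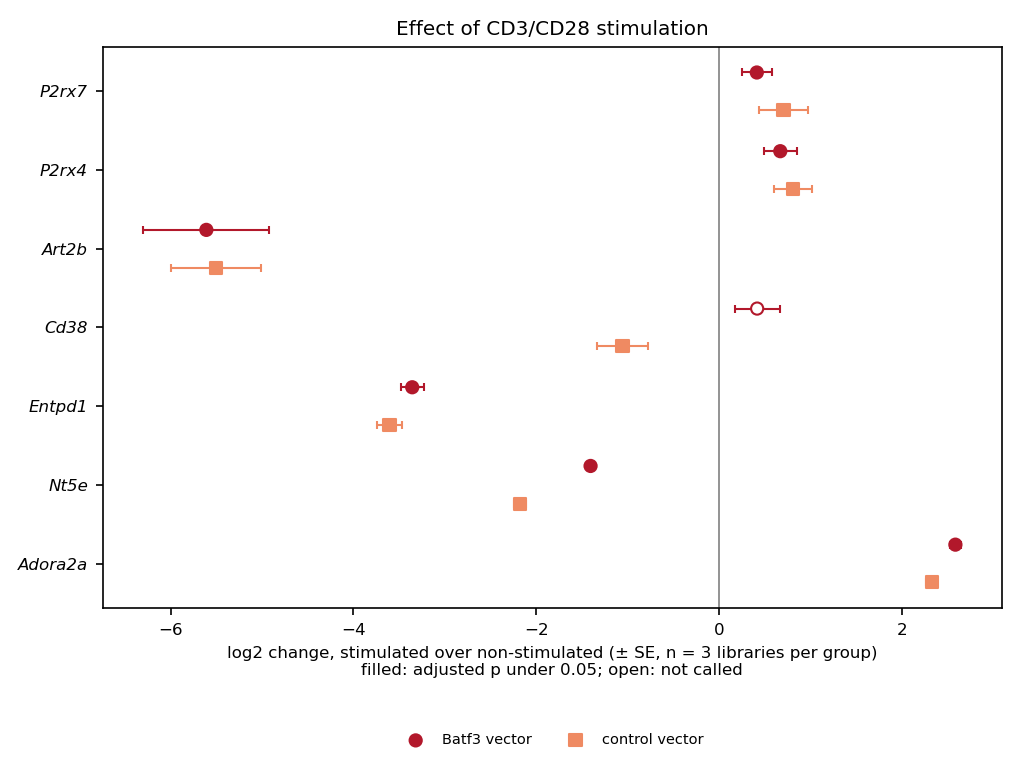
Log2 change of each gene, stimulated over non-stimulated cells, with the Batf3 vector (circles) and the control vector (squares); bars are ± SE, n = 3 libraries per group, and filled symbols passed an adjusted p under 0.05. Art2b and Entpd1 lie far to the left at -5.61 and -3.36 with the Batf3 vector, and Adora2a lies far to the right at 2.59.

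Levels of different genes were compared per kilobase of annotated exon. On this scale Adora2a was the most abundant of the 7 genes in stimulated cells, at 38.7 ± 2.00 CPM per kb with the Batf3 vector and 37.3 ± 0.628 CPM per kb with the control vector (SD, n = 3). That level lay above 87.3% and 86.7% of all tested genes. Nt5e came next in the same groups, at 5.56 ± 0.29 and 2.61 ± 0.0785 CPM per kb. In non-stimulated cells Nt5e was the most abundant, at 14.7 ± 0.158 CPM per kb with the Batf3 vector and 11.8 ± 0.359 CPM per kb with the control vector. Entpd1 and Adora2a followed at 7.72 ± 0.0989 and 6.44 ± 0.289 CPM per kb with the Batf3 vector, and at 7.05 ± 0.448 and 7.43 ± 0.239 CPM per kb with the control vector, where their spreads overlap. P2rx7, P2rx4 and Cd38 stayed between 0.20 and 0.91 CPM per kb in every group mean. P2rx7 ranked above P2rx4 with the Batf3 vector, at 0.91 ± 0.0596 against 0.707 ± 0.0663 CPM per kb in stimulated cells and 0.682 ± 0.0135 against 0.443 ± 0.0604 CPM per kb in non-stimulated cells. With the control vector it ranked below P2rx4, at 0.327 ± 0.053 against 0.575 ± 0.121 CPM per kb in stimulated cells and 0.20 ± 0.0403 against 0.327 ± 0.0395 CPM per kb in non-stimulated cells.

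**Figure D4:**
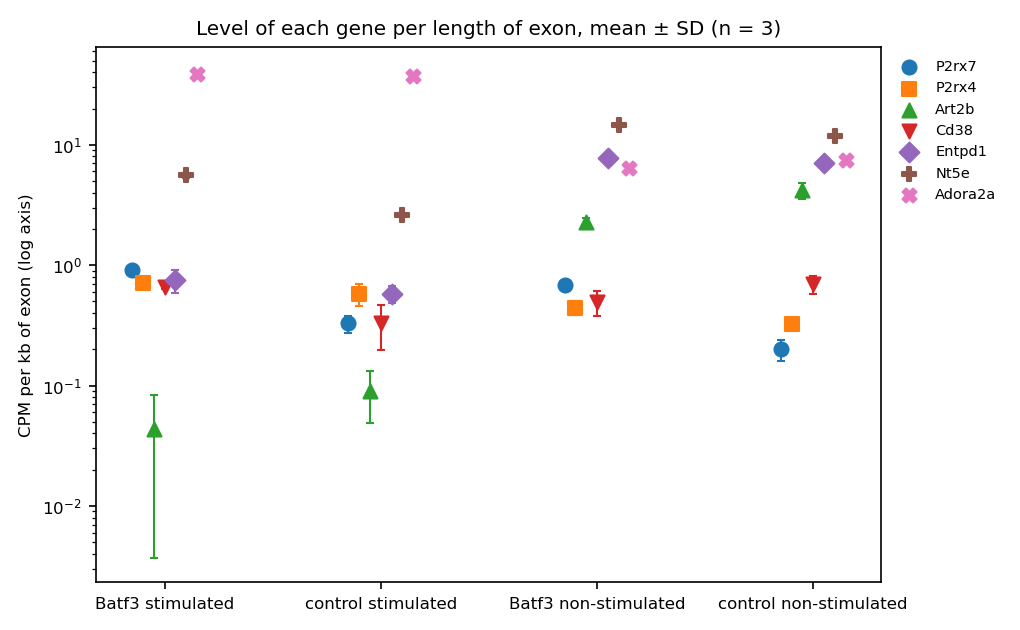
Level of each gene in CPM per kilobase of annotated exon, on a log axis, as the mean ± SD of 3 libraries in each of the 4 groups. Adora2a is highest in the stimulated groups at 38.7 and 37.3, and Nt5e is highest in the non-stimulated groups at 14.7 and 11.8.

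Genes with a like pattern were sought among 9144 named genes averaging at least 5 CPM, by the root mean square difference of centred log2 CPM over the 12 libraries. The 3 nearest to Adora2a were Tnfrsf9 (0.0519), Nfkbiz (0.0554) and Slc7a1 (0.0587). Tnfrsf9, the costimulatory receptor 4-1BB, averaged 966 and 952 CPM in Batf3 and control stimulated cells and 156 and 183 CPM in Batf3 and control non-stimulated cells. The nearest to Nt5e were Ulbp1 (0.104), Ect2 (0.11) and Slc49a4 (0.115), and Ulbp1, a ligand of the receptor NKG2D, averaged 46.6 and 21.4 CPM in Batf3 and control stimulated cells and 136 and 106 CPM in Batf3 and control non-stimulated cells. The nearest to Entpd1 were Apol7b (0.109), its close copy Apol7e (0.114), both uncertain because reads may be split between them, and the cell cycle inhibitor gene Cdkn2d (0.135). The other 4 genes averaged under 5 CPM over all libraries and were not compared in this way.

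The pathway around these genes was described with 7 lists holding 101 symbols, of which 100 matched the table and 82 were tested. With the Batf3 vector 22 of the 82 rose and 16 fell in non-stimulated cells, and 16 rose and 16 fell in stimulated cells. The corresponding shares of all tested genes were 16.3% up and 23% down without stimulation, and 14.8% up and 14.6% down with it. The median log2 changes of the 82 genes were 0.00 in each culture. On stimulation 24 rose and 48 fell with the Batf3 vector (median -0.57), and 24 rose and 49 fell with the control vector (median -0.61), against medians over all tested genes of 0.01 and -0.01. The falls made up 58.5% of the 82 genes with the Batf3 vector, beside 41.4% of all tested genes, and 59.8% with the control vector, beside 40.7% of all tested genes. The 2 comparisons of stimulation share no libraries with each other, but each shares its libraries with the comparisons of the vectors.

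**Figure D5:**
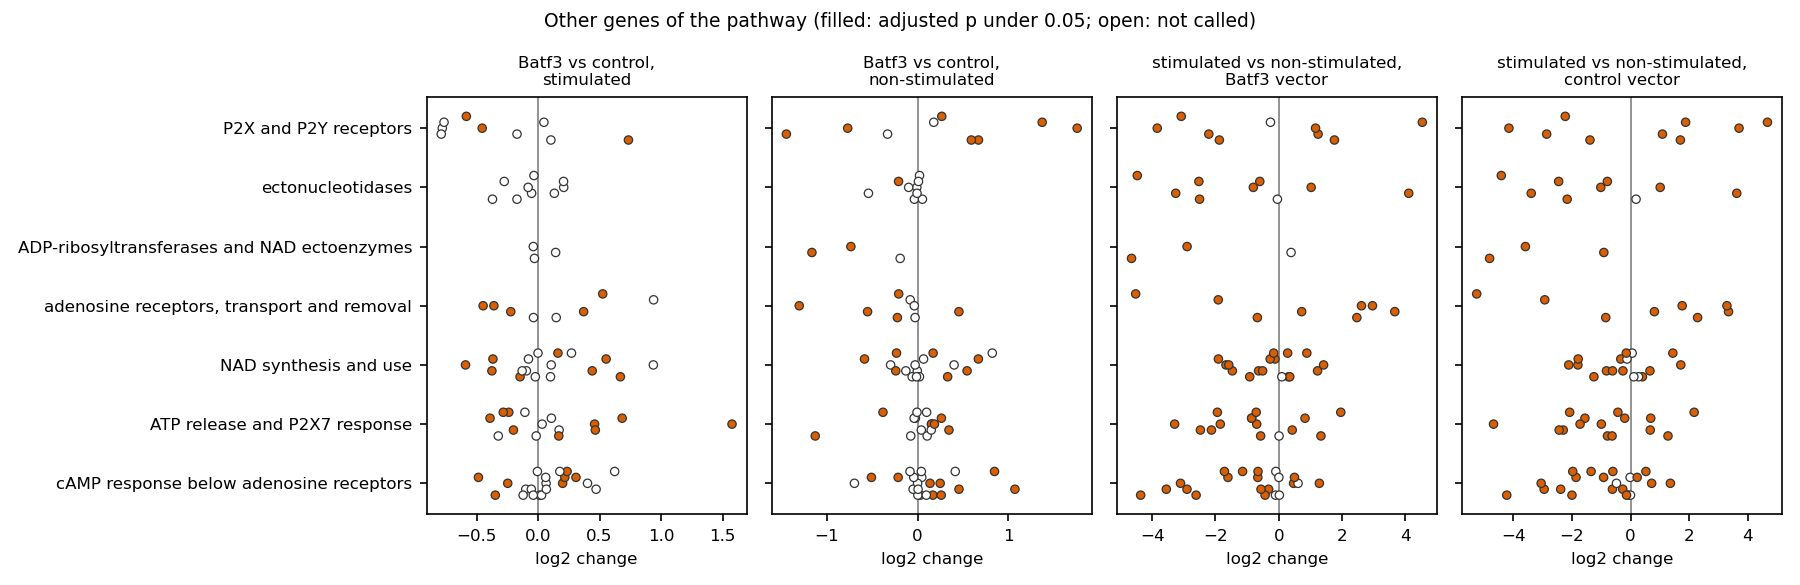
Log2 changes of the 82 tested genes of the 7 pathway lists in 4 comparisons (each point is a gene, with points spread vertically within a list; filled points passed an adjusted p under 0.05). Most points lie left of 0 in the stimulation panels, and the points of the vector panels lie on both sides of 0.

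Among 13 other P2X and P2Y receptor genes, 9 were tested. With the Batf3 vector 5 rose and 2 fell in non-stimulated cells, and 1 rose and 2 fell in stimulated cells. The shares over all tested genes were 16.3% and 23% in non-stimulated cells, and 14.8% and 14.6% in stimulated cells. The 5 rises were P2rx1, P2rx5, P2ry1, P2ry10 and P2ry12, and only P2rx1 was also called higher in stimulated cells. P2ry10 changed by 0.27 in non-stimulated and -0.58 in stimulated cells, both called. In non-stimulated cells P2rx5 had 22 reads with the Batf3 and 6 with the control vector, and P2ry1 had 57 and 21. In stimulated cells these 2 genes changed by -0.78 and -0.76, not called. P2rx1, a fast ATP-gated channel, rose in both cultures. It averaged 6.59 ± 0.692 CPM in Batf3 stimulated and 3.96 ± 0.229 CPM in control stimulated cells (0.73 ± 0.17, edgeR adjusted p = 0.000437), and 1.94 ± 0.293 CPM in Batf3 non-stimulated and 1.22 ± 0.367 CPM in control non-stimulated cells (0.67 ± 0.26, edgeR adjusted p = 0.0341). P2ry14, a receptor for UDP-glucose, fell in both cultures, to 6.97 ± 0.679 CPM in Batf3 stimulated cells against 9.55 ± 0.445 CPM in control stimulated cells, and to 99.9 ± 3.67 CPM in Batf3 non-stimulated cells against 170 ± 1.75 CPM in control non-stimulated cells. On stimulation P2ry2, a receptor for ATP and UTP, rose with both vectors (log2 change 4.54 ± 0.34 with the Batf3 vector and 4.67 ± 0.37 with the control vector), while P2ry14 changed by -3.84 ± 0.10 and -4.15 ± 0.08. P2ry2 averaged 10.1 CPM in Batf3 stimulated and 9.78 CPM in control stimulated cells. Its non-stimulated levels were 0.427 CPM with the Batf3 vector (20 reads over 3 libraries) and 0.376 CPM with the control vector (17 reads). P2ry2 passed the filter on low counts through its stimulated libraries, so the size of its rise rests on few reads.

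Of 9 other ectonucleotidase genes tested, 0 rose and 1 fell with the Batf3 vector in non-stimulated cells and 0 were called in stimulated cells, against 16.3% and 23% of all tested genes in non-stimulated cells and 14.8% and 14.6% in stimulated cells. On stimulation 2 of the 9 rose and 6 fell with each vector, against 41.2% and 41.4% of all tested genes with the Batf3 vector and 39.6% and 40.7% with the control vector. Entpd5, of the same family as Entpd1, averaged 6.15 ± 0.832 CPM in Batf3 stimulated and 58.8 ± 2.27 CPM in Batf3 non-stimulated cells, and 5.61 ± 0.422 CPM in control stimulated and 59.0 ± 1.70 CPM in control non-stimulated cells. Its relative Entpd6 rose instead, by a log2 change of 1.03 ± 0.07 with the Batf3 vector and 1.01 ± 0.07 with the control vector. Alkaline phosphatase (Alpl), which can also yield adenosine, rose to 2.72 ± 0.291 CPM in Batf3 stimulated cells against 0.149 ± 0.0372 CPM in Batf3 non-stimulated cells. The lower value rests on 7 reads over 3 libraries, near the floor of 3 counts per library, so the size of this rise is uncertain. In the list of ADP-ribosyltransferases and NAD ectoenzymes, 3 of the 6 genes in the table were tested. With the Batf3 vector 2 fell in non-stimulated cells, Art4 (-0.73 ± 0.20) and Art3 (-1.16 ± 0.43), and 0 were called in stimulated cells. The fall of Art3 rests on 22 reads in Batf3 non-stimulated and 48 in control non-stimulated cells. In stimulated cells Art3 had 25 reads with the Batf3 vector and 22 with the control vector, and Art4 had 15 with each. A difference could be missed at such counts.

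Of 8 tested genes of adenosine reception, transport and removal, 5 rose and 3 fell on stimulation with each vector. Over all tested genes 41.2% rose and 41.4% fell with the Batf3 vector, and 39.6% rose and 40.7% fell with the control vector, so the falls are near the background. The nucleoside transporter genes Slc29a2 (3.67 ± 0.16 with the Batf3 vector and 3.34 ± 0.14 with the control vector) and Slc29a3 (2.96 ± 0.06 and 3.29 ± 0.06) rose. Dpp4, the peptidase CD26, which in humans anchors adenosine deaminase at the cell surface, fell to 7.31 ± 0.465 CPM in Batf3 stimulated cells against 168 ± 4.02 CPM in Batf3 non-stimulated cells, and to 5.08 ± 0.886 CPM in control stimulated cells against 194 ± 5.44 CPM in control non-stimulated cells. Adora2b, the adenosine receptor of lower affinity, was lower with the Batf3 vector in both cultures, at 6.05 ± 0.536 CPM in Batf3 stimulated and 8.25 ± 0.812 CPM in control stimulated cells, and at 0.981 ± 0.0948 CPM in Batf3 non-stimulated and 2.43 ± 0.342 CPM in control non-stimulated cells (edgeR adjusted p = 0.0137 and 2.02e-05). Adk, the kinase that removes adenosine inside the cell, rose with the Batf3 vector by 0.37 ± 0.09 in stimulated and 0.46 ± 0.10 in non-stimulated cells.

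Among 17 tested genes of NAD synthesis and use, 4 rose and 4 fell with the Batf3 vector in stimulated cells, and 4 rose and 3 fell in non-stimulated cells. All tested genes gave 14.8% and 14.6% in stimulated cells and 16.3% and 23% in non-stimulated cells. Nampt, the rate-limiting enzyme of NAD salvage, averaged 124 ± 4.40 CPM in Batf3 non-stimulated and 186 ± 6.00 CPM in control non-stimulated cells (-0.58 ± 0.04, edgeR adjusted p = 9.83e-21). Nmrk1, a kinase of the alternative salvage route from nicotinamide riboside, rose by 0.67 ± 0.11 in the same comparison. Of 15 tested genes of ATP release and the P2X7 response, 5 rose and 4 fell with the Batf3 vector in stimulated cells, and 5 rose and 2 fell in non-stimulated cells, beside the same shares over all tested genes. Il18, a cytokine gene of the inflammasome pathway, averaged 2.13 ± 0.425 CPM in Batf3 non-stimulated and 4.67 ± 0.604 CPM in control non-stimulated cells (-1.13 ± 0.20, edgeR adjusted p = 2.47e-06).

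Of 21 tested genes of the cAMP response, which adenosine receptors feed, 4 rose and 3 fell with the Batf3 vector in stimulated cells, and 7 rose and 2 fell in non-stimulated cells, against 14.8% and 14.6% of all tested genes in stimulated cells and 16.3% and 23% in non-stimulated cells. Adcy6, an adenylyl cyclase, averaged 17.5 ± 0.280 CPM in Batf3 non-stimulated and 8.31 ± 0.957 CPM in control non-stimulated cells (1.07 ± 0.11, edgeR adjusted p = 5.9e-13). It averaged 1.48 ± 0.336 CPM in Batf3 stimulated and 1.07 ± 0.153 CPM in control stimulated cells (0.47 ± 0.30, edgeR adjusted p = 0.239, not called). Pde4a, a phosphodiesterase that breaks cAMP down, rose with the Batf3 vector by 0.85 ± 0.09 in non-stimulated and by 0.24 ± 0.09 in stimulated cells. On stimulation 3 rose and 13 fell with the Batf3 vector, and 4 rose and 13 fell with the control vector, against 41.2% and 41.4% of all tested genes with the Batf3 vector and 39.6% and 40.7% with the control vector. Adcy7, a cyclase abundant in lymphocytes, averaged 29.0 ± 0.276 CPM in control stimulated and 241 ± 9.50 CPM in control non-stimulated cells, while Pde7a rose by 1.36 ± 0.05 in the same comparison.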

How the data were processed

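RNA-seq libraries of the 12 samples were read from 1 deposited table of whole-number read counts per Ensembl gene. Per the submitters' processing notes, the authors aligned reads to GRCm38 with STAR 2.7 and counted them with featureCounts. The kit was stranded, per the labels' protocols. The annotation release, the counting strand and the handling of multi-mapping reads were not given in the sources used. Of 55335 identifiers, 55154 matched GENCODE M21 (GRCm38), which gave coordinates and exon lengths.

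The analysis used edgeR 4.0.16 under R 4.3.3: filterByExpr (15702 genes kept), TMM factors, 4 group means over all 12 libraries (8 residual degrees of freedom) and robust quasi-likelihood tests, two-sided, with Benjamini-Hochberg adjustment over all tested genes. CPM carry no pseudocount. The SE comes from the fit's information matrix and the moderated dispersion. Floors and counting intervals cover counting error only. The procedure was tested on simulated data.

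The members and lists were chosen with earlier results of these data known. Beside the 7 genes, examples were taken from up to the 2 largest called rises and falls per list and comparison with at least 1 CPM in the higher group. Alternatives were library sizes alone, DESeq2 1.42.0, no filter on low counts, only the 2 groups compared, each library left out and a replicate block. The labels' replicate numbers were not used to pair the libraries in the main fit. Every pair of libraries of a group differed by more than sampling noise.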

Additional observations from a re-analysis of the deposited data

Results flagged for a closer look

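The effect of the Batf3 vector differed between stimulated and non-stimulated cells for 3 of the 7 genes, by the interaction test. The difference in log2 change was 1.47 for Cd38, 0.77 for Nt5e and 0.26 for Adora2a. For Cd38 the effects have opposite signs, of which the one in stimulated cells alone was called, and that call was lost without control stimulated replicate 3 (0.67, edgeR adjusted p = 0.0842). For Nt5e the effects have the same sign. For Adora2a a called fall in non-stimulated cells stands beside a change of 0.05 in stimulated cells that was not called. The Adora2a difference was no longer called under 5 of 16 other settings (0.21 to 0.23), and the fall under 3 of 17 (-0.17 to -0.13).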

How the results depend on the processing

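Over 35 results (7 genes in 5 comparisons) and 586 alternative values, 555 kept their direction and their side of the threshold, 19 kept the direction but were no longer called, 10 became called and 2 reversed. The reversals were those of the interaction for Art2b, which was never called and lay between -0.82 and 0.45 when 1 library was left out. The lost and gained calls, which touch P2rx7, P2rx4, Cd38, Entpd1 and Adora2a, stand beside each gene. The cause of the lost and gained calls was not tested. Fits without a library have fewer samples, and some also moved the balance of calls over all genes. With any 1 control stimulated library left out, 48.4% of calls with the Batf3 vector in non-stimulated cells were rises, against 41.5%. Counts of called genes were within 1.5 times the main count in all 84 cases, for example 5522 to 6561 called genes in non-stimulated cells when 1 library was left out, against 6175. With the replicate block 6059 genes were called there, against 6175 without it. Correlations of the deviations of same-numbered libraries lay between -0.138 and 0.0735, which showed no sign of pairing by number. Such values cannot exclude a pairing, and the main fit treated the libraries as unpaired. DESeq2 gave no adjusted p for Cd38 in the interaction. The fit of the stimulated groups alone gave no value for the Batf3 effect on Art2b. Depth limits Art2b in stimulated cells, at 0 to 5 reads per library, and Cd38 and P2rx7, at 9 to 79.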
